A study of Rattus norvegicus with 24 samples.

Results

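The agent known by the code name IS141 was set against the control, DMSO, a common solvent, in rat cortical cells exposed to glutamate. The comparison took every library titled IS141 with glutamate (3 libraries) and every library titled DMSO with glutamate (3 libraries), 6 of the 24 libraries of the series. All 6 cultures had grown for 8 days in 6-well plates before their medium was exchanged for one with 250 μM glutamate, and the wells were then followed for 4 h in a live-cell imager. The other libraries came from cells given AH609 or AH236, 2 more agents known by code names, and from all 4 treatments in fresh growth medium without added glutamate, again with 3 libraries each. The labels give no dose or time of addition for the agents and do not say what they are, nor when the RNA was taken. Nothing says that the replicates came from separate cultures, so the p-values rest on library-to-library spread, which could be technical.

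Glutamate is the main excitatory transmitter of the cortex. It opens ion channels of the NMDA, AMPA and kainate receptor classes, and when it stays at high levels the calcium that enters through NMDA receptors can injure or kill neurons, a process called excitotoxicity. Calcium entry also switches on kinases and a fast wave of transcription, so the RNA of a glutamate-treated culture reflects both signalling and damage. Cortical cultures usually hold glia beside neurons. In RNA from whole wells, fewer cells of a type and less RNA per cell cannot be told apart.

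The 6 libraries held 27995577 to 34997849 counts each, and the 24 held 22509400 to 35496447. Counts were tested with edgeR's quasi-likelihood test in 1 fit of all 24 libraries, and a gene was called at a Benjamini-Hochberg adjusted p under 0.05 over the 15908 genes tested. Levels are given as CPM, counts scaled to a common library size, which allow the same gene to be compared between libraries but not one gene with another. The table identifies genes by Ensembl rat ID alone and 0 IDs could be paired with a symbol, so the labelled cell type could not be checked against its markers and the genes are described by level, size of change and response to glutamate. The 4 IDs printed are the 2 with the largest rise and the 2 with the largest fall under the naming rule.

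IS141 shifted many genes by small amounts and few by large ones. Of the 15908 genes tested, 1346 (8.46%) were called: 647 (4.07%) higher and 699 (4.39%) lower in IS141 cultures. The median change was 0.30 on the log2 scale among the higher genes and -0.30 among the lower ones, against -0.01 over all genes tested, with a median standard error of 0.101. Called changes of 1.5-fold or more numbered 97 rises and 79 falls. Called changes of 2-fold or more numbered 29 rises (0.182% of genes tested) and 23 falls (0.145%), of which 3 and 2 were 4-fold or more. Every IS141 library lay above every DMSO library for 620 of the 647 higher genes, against 13% of all genes tested, and below every DMSO library for 679 of the 699 lower genes, against 14.4%. No called gene had all 3 libraries of a group at 0.

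The 2-fold changes were mostly in sparsely expressed genes, and the changes of abundant genes were small. Below 1 CPM, 20 of 2593 genes rose and 14 fell, with a median absolute log2 change of 1.32, and 17 of the 29 rises of at least 2-fold and 12 of the 23 falls lay there. Between 1 and 10 CPM, 102 of 4506 genes rose and 144 fell, with a median absolute log2 change of 0.52, and 12 of the rises and 7 of the falls reached 2-fold. Between 10 and 100 CPM, 349 of 6664 genes rose and 460 fell, with a median absolute log2 change of 0.29. Above 100 CPM, 176 of 2145 genes rose and 81 fell, with a median absolute log2 change of 0.22, and none reached 2-fold. The smallest called log2 change was 0.11 above 100 CPM and 0.77 below 1 CPM. The median standard error was 0.05 above 100 CPM and 0.41 below 1 CPM. Genes called higher took 8.20%, 8.14% and 7.90% of the counts in the IS141 libraries, against 6.85%, 6.79% and 7.16% in the DMSO libraries. Genes called lower took 2.91%, 2.96% and 2.97% in the IS141 libraries, against 3.71%, 3.65% and 3.50% in the DMSO libraries. These genes were chosen on the same libraries, so the shares describe how much RNA was involved and carry no test.

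**Figure D1:**
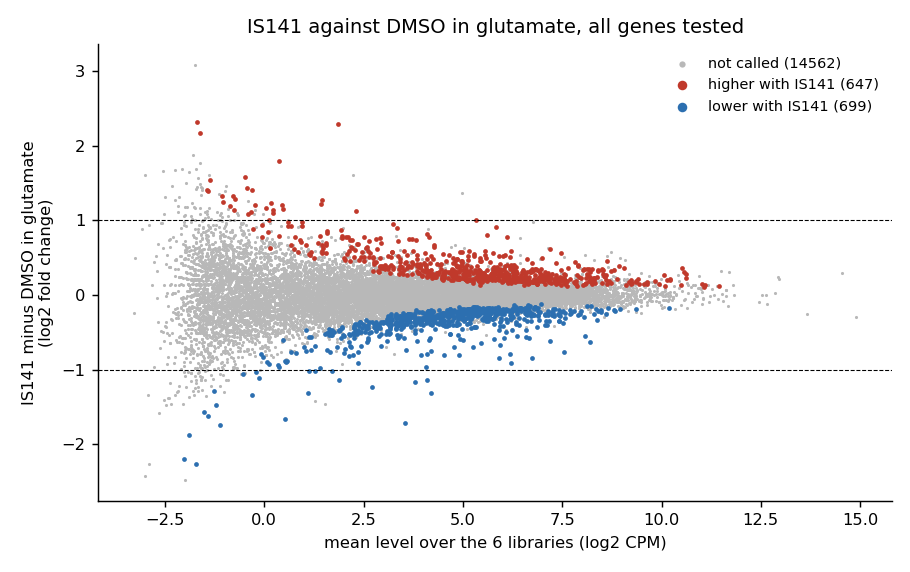
Each point is 1 of the 15908 genes tested, with its mean level over the 6 libraries (log2 CPM) on the horizontal axis and its log2 fold change, IS141 minus DMSO in glutamate, on the vertical axis; red points were called higher (647), blue points lower (699), and dashed lines mark 2-fold. The called points lie near 0 at high levels and beyond the dashed lines mainly at low levels.

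The size of the called list depended on single libraries. It held 632 or 661 genes without IS141 replicate 1 or 2, and 605 or 656 without DMSO replicate 1 or 2 of the glutamate cultures. It held 2423 genes without DMSO replicate 1 of the medium cultures, a library outside the contrast that stood apart from its replicates; the common biological coefficient of variation of the fit was 5.82% without it and 7.49% with it. That last list included all 1346 genes. A core of 386 genes, 191 higher and 195 lower, was called whichever of the 6 compared libraries was left out, and no called gene changed sign under any alternative. The 29 rises of at least 2-fold were 16 without DMSO glutamate replicate 2, 48 without DMSO medium replicate 1 and 6 by DESeq2, which gave 11 in place of the 23 falls. DESeq2 gave an adjusted p for 12804 genes in this contrast, against 15908 by edgeR, and genes without one could not be called. How many of the 2-fold changes were among them was not examined. Scaling to library totals alone moved the split to 499 higher and 860 lower genes and the median of all genes to -0.03 on the log2 scale.

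Above a mean level of 1 log2 CPM, and with the groups not overlapping, the largest rise belonged to ENSRNOG00000043451. Its level was 8.78, 8.91 and 6.51 CPM in the IS141 glutamate libraries, against 2.36, 1.01 and 1.57 CPM in the DMSO glutamate libraries. All 3 IS141 libraries lay above all 3 DMSO libraries, and the gene rose 4.87-fold (log2 change 2.28 ± 0.44 SE, adjusted p = 0.00428 by edgeR). In fresh medium the order was turned round, with 1.18, 1.44 and 0.860 CPM in the IS141 libraries and 1.86, 2.65 and 2.21 CPM in the DMSO libraries. That difference missed the threshold (log2 change -0.94 ± 0.52, adjusted p = 0.313), but the change between media passed it, at 3.22 ± 0.68 on the log2 scale (adjusted p = 0.034). The change ranged from 2.98 to 3.56 over 24 alternatives and was called in 12 of them (adjusted p 0.00132 to 0.103). It missed the threshold with no filter, without AH236 glutamate replicate 1, and without any 1 of the IS141 and DMSO libraries other than DMSO replicate 1 of either medium. In glutamate the AH609 libraries were at 5.48, 2.80 and 2.44 CPM and the AH236 libraries at 2.88, 0.686 and 5.07 CPM, with a wide spread between replicates of both agents. Glutamate changed the gene by 1.13 ± 0.34 in the AH609 and AH236 cultures (adjusted p = 0.00711), while in DMSO cultures its glutamate change was -0.43 ± 0.49 (adjusted p = 0.47). IS141 minus AH609 was 1.18 ± 0.41 on the log2 scale (adjusted p = 0.388) and IS141 minus AH236 was 1.44 ± 0.42 (adjusted p = 0.04).

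The next largest rise was that of ENSRNOG00000018003, at 4.05, 4.53 and 3.85 CPM in the IS141 glutamate libraries, against 1.91, 1.38 and 1.84 CPM in the DMSO glutamate libraries. The groups did not overlap, and the gene rose 2.41-fold (log2 change 1.27 ± 0.26, adjusted p = 0.00281). Glutamate itself raised this gene: in the AH609 and AH236 cultures its glutamate change was 2.32 ± 0.23 on the log2 scale (adjusted p = 1.57e-09), and in DMSO cultures it was 2.17 ± 0.35 (adjusted p = 7.15e-06). In fresh medium it was lower in both groups, at 0.492, 0.701 and 0.710 CPM in the IS141 libraries and 0.810, 0.286 and 0.0614 CPM in the DMSO libraries. These overlapped through DMSO replicate 1 alone: the IS141 difference in medium was 0.73 on the log2 scale with that library (adjusted p = 0.31) and 1.90 without it (adjusted p = 0.00194). The change of the difference between media was 0.54 with that library (adjusted p = 0.806) and turned to -0.63 without it (adjusted p = 0.561). The glutamate change of 2.17 in DMSO cultures also uses that library, and its value without it is not given here. Under glutamate the gene was at 3.30, 2.7 and 3.30 CPM with AH609 and at 1.71, 1.74 and 2.15 CPM with AH236. The level with IS141 was above that with AH236 (log2 difference 1.14 ± 0.26, adjusted p = 0.00661) and its difference from that with AH609 missed the threshold (0.41 ± 0.24, adjusted p = 0.593).

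The largest fall was that of ENSRNOG00000029264. It was at 6.10, 6.46 and 6.65 CPM in the IS141 glutamate libraries, against 19.1, 25.3 and 19.0 CPM in the DMSO glutamate libraries. The groups were far apart and the gene fell 3.29-fold (log2 change -1.72 ± 0.25, adjusted p = 0.000552). In medium the IS141 libraries held 49.3, 43.7 and 50.5 CPM and the DMSO libraries 26.1, 54.8 and 58.6 CPM, which overlapped, with DMSO replicate 1 the lowest of the 6. The IS141 difference changed between the media, by -1.76 ± 0.32 on the log2 scale (adjusted p = 0.0126). Over 24 alternatives this change lay between -1.97 and -1.47 and was called in 23 (adjusted p 6.08e-06 to 0.223), all but the fit of the 4 compared groups alone (-1.76, adjusted p = 0.223). With the other agents under glutamate the gene was at 8.86, 6.31 and 7.10 CPM with AH609, which overlapped the IS141 libraries, and at 6.08, 4.58 and 5.63 CPM with AH236, all below them. Neither difference from IS141 was called: IS141 minus AH609 was -0.22 ± 0.28 (adjusted p = 0.818) and IS141 minus AH236 was 0.23 ± 0.30 (adjusted p = 0.697). Glutamate lowered the gene in the AH609 and AH236 cultures, with a log2 change of -2.72 ± 0.17 (adjusted p = 1.25e-10), and in DMSO cultures with a log2 change of -1.14 ± 0.21 (adjusted p = 0.000165).

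The next largest fall was that of ENSRNOG00000006979, at 13.5, 11.7 and 9.81 CPM in the IS141 glutamate libraries, against 25.5, 33.6 and 27.9 CPM in the DMSO glutamate libraries. It fell 2.48-fold without overlap (log2 change -1.31 ± 0.20, adjusted p = 0.000539). Here the glutamate change in the AH609 and AH236 cultures missed the threshold (-0.28 ± 0.14, adjusted p = 0.0853), as did that in DMSO cultures (0.10 ± 0.18, adjusted p = 0.672). The gene was also lower with IS141 in medium, at 17.2, 16.8 and 16 CPM against 16.5, 34.8 and 30.0 CPM with DMSO (log2 change -0.70 ± 0.19, adjusted p = 0.0292), where DMSO replicate 1 lay among the IS141 libraries. Under glutamate the AH609 libraries were at 15.1, 13.2 and 11.9 CPM and the AH236 libraries at 14.2, 14.3 and 15.2 CPM, all below the 3 DMSO libraries. All 4 named genes remained called under all 14 alternative settings of the IS141 contrast in glutamate, with largest adjusted p-values of 0.0304, 0.0248, 0.00521 and 0.00428 in the order given here.

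**Figure D2:**
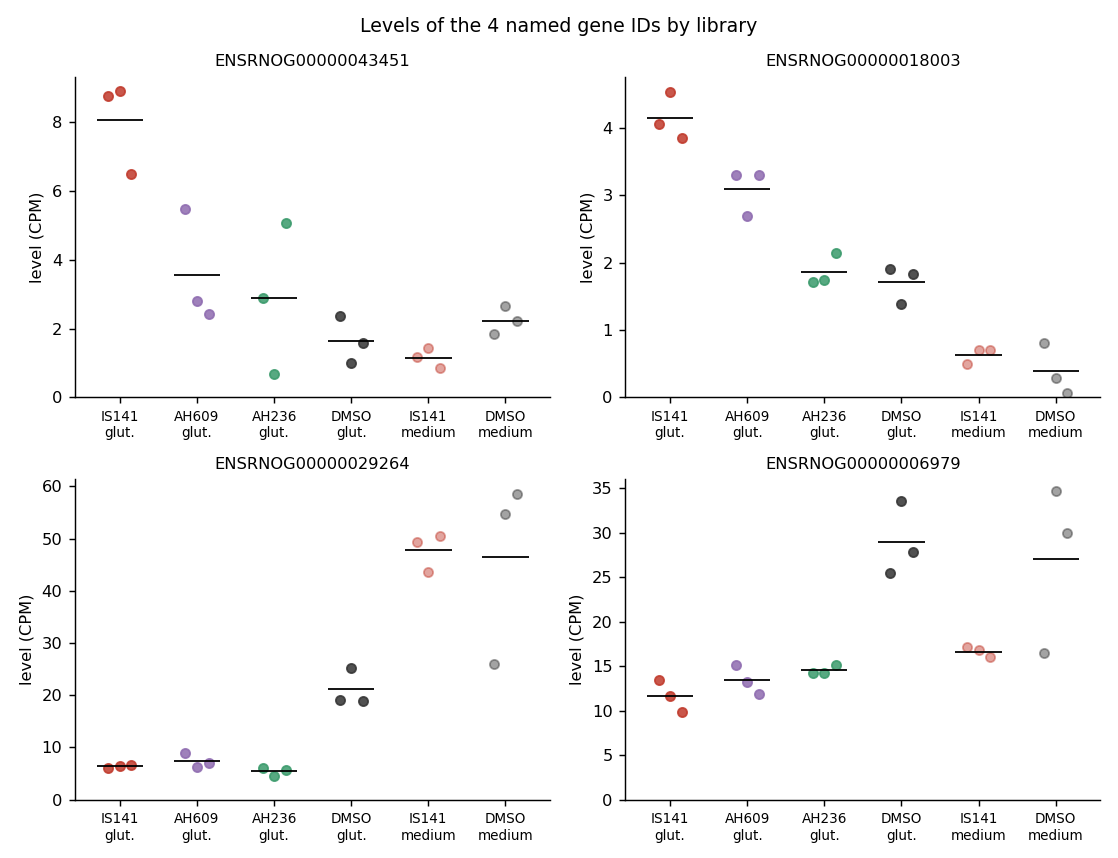
Level in CPM (vertical axis) of the 4 named gene IDs in each library of 6 groups, with points for single libraries and bars for the mean of 3. The IS141 glutamate libraries of ENSRNOG00000029264 lie between 6.10 and 6.65 CPM, below the DMSO glutamate libraries at 19.0 to 25.3 CPM and close to the AH609 and AH236 libraries.

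The 10 largest rises under the same rule ranged from 0.86 to 2.28 on the log2 scale and the 10 largest falls from -1.01 to -1.72. Of the 10 rises, 7 were genes that glutamate raised in the AH609 and AH236 cultures, which had been given other agents, 1 was a gene that it lowered and 2 were not called there. Of the 10 falls, 7 were lowered by glutamate, 1 was raised and 2 were not called. Of all genes tested, 35% were raised by glutamate in those cultures, 36% were lowered and 29% were not called. In fresh medium 7 of the 10 rises and 7 of the 10 falls had the same sign, of which 3 and 2 were called, and none was called in the opposite direction. Over all genes tested, 67.7% had the same sign in both media, close to these shares, and 6.98% were also called that way in medium. Without DMSO replicate 1 of the medium cultures, 8 of the 10 rises and 8 of the 10 falls had the same sign, and 4 and 4 were called. In that setting 10050 of the 15908 genes tested had the same sign. Of the 10 rises, 8 were called under every alternative, as were 9 of the 10 falls.

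**Figure D3:**
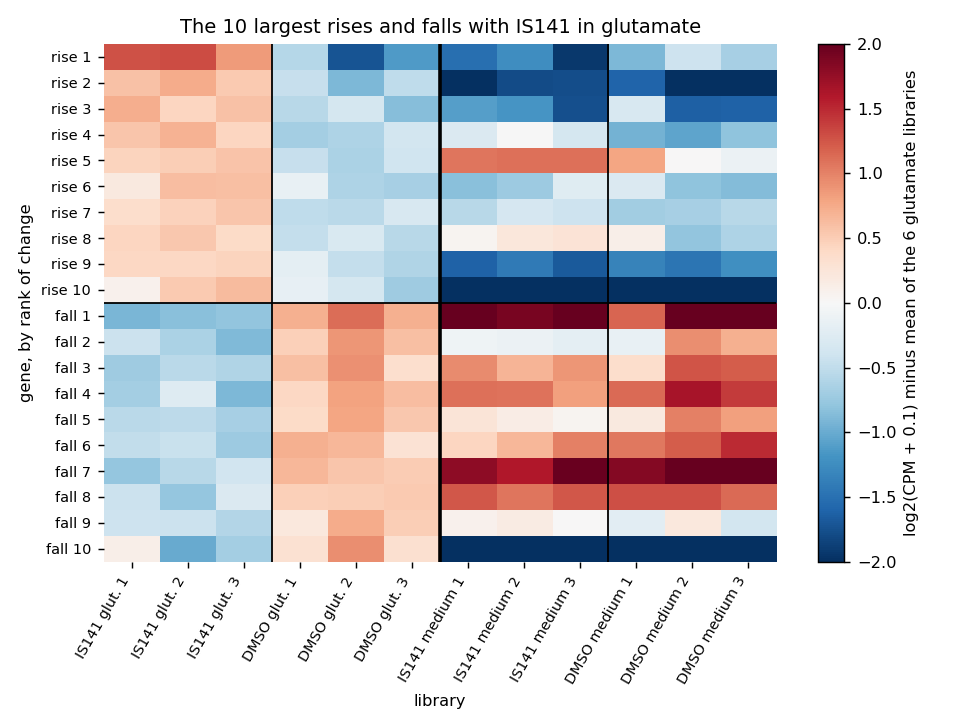
Heat map of the 10 largest rises and 10 largest falls (one gene to each line) in the 12 IS141 and DMSO libraries of both media, as log2(CPM + 0.1) minus the mean of the 6 glutamate libraries; colours end at 2 log2 units either way. Within glutamate the IS141 and DMSO libraries do not overlap for any gene shown, which the choice of genes required, while in medium the colours of the groups differ less evenly.

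The IS141 difference ran mostly along the glutamate response of the AH609 and AH236 cultures. The direction of that response was taken from glutamate against medium in those cultures, which share no library with the IS141 contrast, although all libraries entered the same fit. It is the response of cells given other agents. An effect under glutamate that those agents share with IS141 would enter both this response and the IS141 contrast. The match between them is therefore not independent, and how much of it arises in this way was not tested. The response in DMSO cultures, printed above for the 4 named genes, uses the DMSO glutamate libraries of the IS141 contrast and was not used to sort genes here. It also uses DMSO medium replicate 1, and its values without that library are not given. For ENSRNOG00000043451 a rise with glutamate was called over the AH609 and AH236 cultures together, although the AH236 libraries of the 2 media overlapped. No change was called in DMSO cultures, and the difference between those responses was not tested. In the AH609 and AH236 cultures glutamate raised 5565 genes (35%) and lowered 5725 (36%). Of the 647 genes higher with IS141, 390 (60.3%) were raised by glutamate and 132 (20.4%) were lowered. Of the 699 genes lower with IS141, 510 (73%) were lowered by glutamate and 92 (13.2%) were raised. Read from the other list, 7.01% of the glutamate-raised genes were higher with IS141 and 1.65% were lower, while 8.91% of the glutamate-lowered genes were lower and 2.31% were higher. In the core of 386 genes, 117 of 191 higher genes were raised by glutamate and 34 lowered, and 155 of 195 lower genes were lowered and 16 raised. In all, 900 called genes moved the way of glutamate and 224 against it. These counts were 422 and 105 without IS141 replicate 1, 438 and 103 without IS141 replicate 2, 388 and 107 without DMSO replicate 1, 482 and 77 without DMSO replicate 2 (all of the glutamate cultures), and 1592 and 465 without DMSO medium replicate 1.

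The median shift was larger where the glutamate change was larger, but the share of genes called was not highest among the strongest responders. Genes tested were also grouped by the size of their glutamate change in the AH609 and AH236 cultures, whether that change was called or not. Over those lowered at least 4-fold (67 genes), the median IS141 change was -0.24 on the log2 scale, with 3 called lower (4.48%) and 0 higher by edgeR. Over those lowered 2 to 4-fold (911 genes), the median IS141 change was -0.17 on the log2 scale, and 99 were called lower (10.9%) and 4 higher. Over those it lowered less than 1.5-fold (5360 genes) the median was -0.03. Among the genes glutamate raised 2 to 4-fold (1014 genes) the median was 0.12, with 78 called higher (7.69%) and 12 lower. Among those it raised at least 4-fold (496 genes) it was 0.14, with 28 higher (5.65%) and 4 lower. Over all genes tested, 4.07% were called higher and 4.39% lower, so the 4.48% of the 67 genes is near that share. The share called also differed by level, at 1.31% below 1 CPM and 12% above 100 CPM. The levels of these groups of genes were not compared. By library, and relative to the mean of the 3 DMSO libraries, the genes lowered 2 to 4-fold had medians of -0.20, -0.18 and -0.12 in the IS141 libraries, against 0.06, -0.04 and -0.01 in the DMSO libraries. The genes raised at least 4-fold had medians of 0.16, 0.15 and 0.10 in the IS141 libraries, against -0.04, 0.07 and -0.03 in the DMSO libraries. In both sets all 3 IS141 libraries lay beyond the 3 DMSO libraries. In fresh medium the same genes had a median IS141 change of -0.13 where glutamate lowered them 2 to 4-fold, 0.11 where it raised them 2 to 4-fold and 0.18 where it raised them at least 4-fold. Without DMSO medium replicate 1 these 3 medians were -0.13, 0.21 and 0.66, so the medians of raised genes in medium depend on that library. Over all genes raised and all genes lowered by glutamate, the median IS141 change was 0.05 and -0.07, and it kept its sign under all 14 alternatives, between 0.03 and 0.06 for raised genes and between -0.08 and -0.06 for lowered ones.

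**Figure D4:**
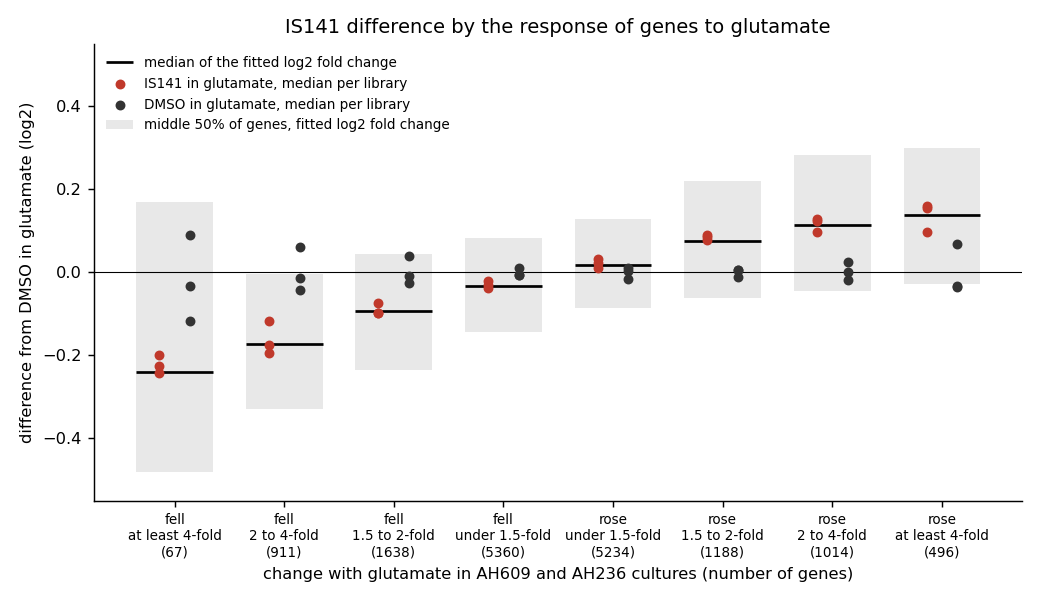
Genes tested are grouped on the horizontal axis by their glutamate change in the AH609 and AH236 cultures, and the vertical axis gives the log2 difference with IS141 in glutamate; grey boxes span the middle 50% of the fitted gene changes and black bars give their median, and points are the medians of single libraries relative to the mean of the 3 DMSO libraries. The IS141 points lie below the DMSO points where glutamate lowered genes by at least 2-fold and above them where it raised genes by at least 2-fold.

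Most of the IS141 difference in glutamate had the same direction in fresh medium, in libraries that the glutamate contrast does not use. In medium IS141 cultures had 713 genes (4.48%) above and 556 (3.5%) below the DMSO cultures. Of the 647 genes higher in glutamate, 573 (88.6%) had the same sign in medium, 229 were called higher there and 6 were called lower. Of the 699 genes lower in glutamate, 601 (86%) had the same sign, 153 were called lower and 2 were called higher. Over all genes tested, 67.7% had the same sign in both media. The differences were larger in glutamate, where these genes were chosen: the median was 0.30 in glutamate and 0.18 in medium for the higher genes, and -0.30 in glutamate and -0.14 in medium for the lower ones. Without DMSO replicate 1 of the medium cultures, 1157 genes were called above and 776 below in medium. The same sign was then found for 553 of the 647 higher genes, with 225 called higher and 5 lower. It was found for 569 of the 699 lower genes, with 174 called lower and 7 higher, and for 10050 of all 15908. The medians in medium were then 0.16 and -0.12.

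A direct test of the change found that the IS141 difference was not the same in the 2 media for 124 genes (0.779%). For 35 genes (0.22%) it was higher in glutamate, with a median difference between IS141 and DMSO of 0.26 in glutamate and -0.19 in medium on the log2 scale. For 89 genes (0.559%) it was lower in glutamate, with a median of -0.13 in glutamate and 0.36 in medium. Of these 89, 61 were called higher with IS141 in medium and 29 were called lower in glutamate. Over all genes tested these shares were 4.48% and 4.39%. The 124 genes were chosen on the difference between the same 2 contrasts, which tends to place them on opposite sides of 0. Glutamate raised 57 of the 89 in the AH609 and AH236 cultures and lowered 24, against 35% and 36% of all genes tested. Of the 35 genes higher in glutamate, it raised 11 and lowered 17. Among the 1346 genes called in glutamate, 56 were called in this test. The count was 742 without DMSO replicate 1 of the medium cultures, all 124 included, and 30 in a fit of the 4 compared groups alone. It was 71 without DMSO glutamate replicate 2, 68 and 72 without IS141 glutamate replicates 2 and 3, and 82 without IS141 medium replicate 2.

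**Figure D5:**
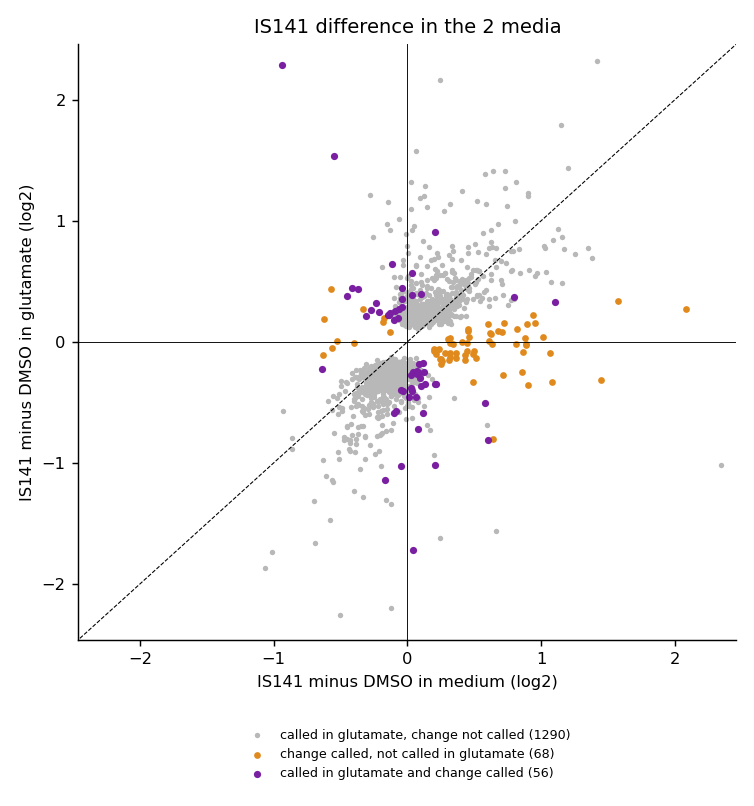
Log2 fold change of IS141 over DMSO in glutamate (vertical axis) against that in medium (horizontal axis) for genes called in glutamate without a called change (grey, 1290), with a called change only (orange, 68) or with both (purple, 56); the dashed line marks equal differences. Most grey points share their sign in both media, and most orange points lie to the right, above 0 in medium and near 0 in glutamate.

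Set against the other agents in glutamate, in 2 pairs, IS141 differed from AH236 in many genes and from AH609 in none called in the fit of all 24 libraries. Doses are not in the labels, so these comparisons may be between unequal doses. Between IS141 and AH609, edgeR called 0 of 15908 genes (0%) in that fit, with 1595 genes (10%) at an unadjusted p under 0.05 and a smallest adjusted p of 0.16. Other edgeR fits called 37 genes with the 2 compared groups alone, 10 without DMSO replicate 1 of the medium cultures, 2 with the 12 glutamate libraries and 1 with the replicate block, and DESeq2 called 15. The 95% interval of the difference had a median width of 0.211 to either side on the log2 scale and lay within 1.5-fold for 73.7% and within 2-fold for 87.2% of genes, and for the rest it reached beyond 2-fold. Between IS141 and AH236, 1375 genes (8.64%) were called, 483 higher (3.04%) and 892 lower (5.61%) with IS141. The higher genes had a median difference of 0.35 and a median level of 19.9 CPM, and 35 differed at least 2-fold. The lower genes had a median difference of -0.26 and a median level of 76.3 CPM, and 12 differed at least 2-fold. The count of 1375 was 2460 without DMSO replicate 1 of the medium cultures, 701 and 595 without AH236 replicates 1 and 3, and 889, 778 and 786 without IS141 replicates 1, 2 and 3.

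Of the 10 largest rises with IS141 over DMSO, 10 had a higher mean with IS141 than with AH609, none of them called, and 8 were called above AH236. Of the 10 largest falls, 10 had a lower mean with IS141 than with AH609, none of them called, and 2 were called below AH236. The fall of rank 7 was called above AH236 (log2 difference 0.47, adjusted p = 0.0111 by edgeR). Those of rank 1 and 10 had log2 differences from AH236 of 0.23 and 0.003, not called. The rises and falls were chosen for their IS141 libraries, which tends to place IS141 at the extreme. Over the 647 genes called higher with IS141, the median log2 difference from DMSO was 0.31 with IS141, 0.20 with AH609 and 0.19 with AH236. Over the 699 genes called lower it was -0.30 with IS141, -0.18 with AH609 and -0.15 with AH236. The 3 differences share the DMSO libraries, so their common sign is not independent, and the genes were chosen on IS141.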

How the data were processed

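RNA was sequenced from rat cortical cells in 24 libraries, 8 groups of 3, and groups were taken from the sample titles. Titles give the number 2 to a pair of AH236 libraries in glutamate, and the later one is called replicate 3. The deposited file was a single table of raw gene counts, whole numbers under Ensembl rat IDs (32754 gene rows, 25683 with a count). Per the labels' protocols, an RNeasy kit gave the RNA and a directional NEBNext Ultra II kit the libraries. Per the submitters' processing notes, RSEM 1.3.3, STAR 2.7.8a, FastQC 0.11.8, cutadapt 2.3 and bcl2fastq were used with the build Rnor_6.0. What each did, the gene annotation and the strandedness of counting were not given in the sources used here. Since RSEM makes estimates, the whole numbers may be rounded estimates, and genes that overlap or share reads with near-identical copies are uncertain.

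Genes were kept by filterByExpr (minimum count 10), which left 15908 genes with at least 99.96% of each library's counts. TMM factors, robust dispersions and the quasi-likelihood F test of edgeR 4.0.16 in R 4.3.3 were used, with 1 mean per group. Standard errors were derived from the F statistic. Alternatives were DESeq2 1.42.0, RLE factors, library totals, no filter, fewer libraries, each compared library left out and a replicate block. The block used the numbers in the titles. The code was tested on simulated data. Replicates of a group differed by more than sampling noise, so none was counted as a duplicate.

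The comparison, gene lists and tests were chosen with earlier results of these data known. The naming rule took, among called genes whose groups did not overlap and whose mean was 1 log2 CPM or more, the 10 with the largest rise and the 10 with the largest fall, and 2 IDs in each direction are printed. Because 0 IDs matched a symbol, the 49 gene lists (960 symbols), the marker check, the promoter motifs and the parts of the rule that need symbols could not be applied.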

Additional observations from a re-analysis of the deposited data

Results flagged for a closer look

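The IS141 difference changed between glutamate and medium for 124 genes by the interaction term of the edgeR fit. The change, IS141 minus DMSO in glutamate less the same difference in medium, was 3.22 on the log2 scale for ENSRNOG00000043451, which was higher with IS141 in 3 of 3 libraries in glutamate and lower in 3 of 3 in medium. It lay between 2.98 and 3.56 over 24 alternatives and was called in 12 of them. The change was -1.76 for ENSRNOG00000029264, which was lower with IS141 in 3 of 3 libraries in glutamate and overlapped DMSO in medium. It was called in 23 of 24 alternatives, between -1.97 and -1.47.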

How the results depend on the processing

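The 4 named genes kept their direction and their call under all 14 alternatives, and 377 of the 1346 called genes were called under every one. Leaving out 1 library at a time, DMSO replicate 1 of the medium cultures included, gave 605 to 2423 called genes, 280 to 1192 higher and 325 to 1231 lower. It gave 16 to 48 rises and 16 to 31 falls of at least 2-fold, 68 to 742 genes with a changed difference between media, 0 to 10 between IS141 and AH609, and 595 to 2460 between IS141 and AH236. Genes that moved with glutamate numbered 388 to 1592 in those fits, against 900 as reported, and genes that moved against it 77 to 465, against 224. Fitting the 12 glutamate libraries alone called 2128 genes, 1144 of them higher, with 388 against glutamate, 2 between IS141 and AH609 and 2171 between IS141 and AH236. Fitting the compared groups alone called 30 changed differences, 37 genes between IS141 and AH609 and 2437 between IS141 and AH236. DESeq2, which gave an adjusted p for 12804 genes in the IS141 contrast against 15908 by edgeR, called 6 rises and 11 falls of at least 2-fold. It called 208 changed differences and 15 genes between IS141 and AH609. The causes were not tested. Without DMSO replicate 1 of the medium cultures the common biological coefficient of variation was 5.82%, against 7.49% with it, and the log2 changes of the IS141 contrast moved by a median of 0.00281.

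The replicate numbers gave no sign of pairing: deviations of same-numbered IS141 and DMSO libraries correlated at -0.197, -0.0179 and -0.124 across genes. Those of differently numbered libraries correlated at -0.0844 to 0.198. With so few libraries, this check cannot decide whether same-numbered libraries shared a batch. With the replicate number as a block, 1320 genes were called, 1263 of them shared with the 1346, and 1 gene between IS141 and AH609. Medians of gene lists were not run under any setting, because no ID had a symbol. Depth limits sparsely expressed genes: below 1 CPM the smallest called log2 change was 0.77.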

Other observations

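A smaller set of genes moved with IS141 against the direction of the glutamate response. Glutamate lowered 132 of the genes that were higher with IS141, with a median log2 change of -0.33 by glutamate in the AH609 and AH236 cultures and 0.29 by IS141 over DMSO in glutamate. The largest of these rises with IS141 was 1.54. In fresh medium 105 of the 132 had the same sign with IS141 and 40 were called higher there. Glutamate raised 92 of the genes that were lower with IS141, with medians of 0.37 by glutamate and -0.29 by IS141, and 65 of them had the same sign in medium with 15 called lower. The same sign in both media was found for 67.7% of all genes tested, 88.6% of those higher with IS141 and 86% of those lower. The 65 of 92 is thus near the share over all genes. In medium 4.48% of all genes tested were called higher with IS141 and 3.5% lower. Of all genes called higher in glutamate 35.4% were called higher in medium, and of those called lower 21.9% were called lower. Glutamate had moved 4 of the 132 and 16 of the 92 by at least 2-fold. Of all genes tested, 911 fell 2 to 4-fold and 67 at least 4-fold, beside 5725 called lowered. Likewise 1014 rose 2 to 4-fold and 496 at least 4-fold, beside 5565 called raised. Whichever of the 6 compared libraries was left out, 34 of the 132 and 16 of the 92 were called, against 28.7% of all 1346 called genes.

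Between libraries, the first principal component of the 6 carried 33.1% of the variance and placed the IS141 libraries at 20.1, 16 and 12.8 and the DMSO libraries at -19.9, -19.3 and -9.72. Over the 12 glutamate libraries, the second component (14.9%) placed IS141 at 16.3, 11.6 and 7.68, AH609 at 2.03, 6.92 and 4.54, AH236 at 2.5, 4.05 and 1.96, and DMSO at -23.9, -20.2 and -13.6. AH609 and AH236 lay between the other groups on that axis and overlapped each other. The first component of the 12 libraries, which carries more variance, is not given here, so this order need not be the main one.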
